A study of Bos taurus with 28 samples.

Results

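The class II histocompatibility genes of cattle were followed through 15 probe sets of 8 genes, out of 24016 probe sets that the Affymetrix Bovine Genome Array holds besides its controls. Each probe set is a group of short DNA probes, read in a single colour, and may match more than 1 transcript. They are all the probe sets to which the platform annotation gives exactly 1 symbol among BOLA-DQA2, BOLA-DQA5, BOLA-DQB, BOLA-DQB1, BOLA-DRA, BOLA-DRB3, BOLA-DMA, BOLA-DMB and CD74. No probe set carried the symbol CD74 alone, so 8 of the 9 genes are described. BOLA-DQB1 had 5 probe sets, BOLA-DQA2 had 3 and BOLA-DRB3 had 2, and each of the other genes had 1. The genes were chosen by their log2 values in these same arrays, which had fallen into low and high groups of cows, so those groups are described here without a test. Where a gene has several probe sets they are numbered. BOLA-DQA2 probe sets 1, 2 and 3 are Bt.4751.1.S1_a_at, Bt.4751.2.S1_a_at and Bt.4751.2.S1_at. BOLA-DQB1 probe sets 1, 2 and 3 are Bt.350.1.S1_at, Bt.350.1.S1_s_at and Bt.350.1.S1_x_at, and probe sets 4 and 5 are Bt.4594.1.S1_at and Bt.7220.1.S1_at. BOLA-DRB3 probe sets 1 and 2 are Bt.28011.1.S1_at and Bt.5356.1.S1_s_at.

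The RNA came from surgical biopsies of the mammary gland of 28 Holstein-Friesian dairy cows in the middle of lactation, all fed the control diet, with 1 array per cow. The cows differed in DGAT1, the gene of an enzyme of triacylglycerol synthesis, at 1 variable residue. There were 4 KK cows (lysine on both alleles), 13 KA cows (lysine and alanine) and 11 AA cows (alanine on both alleles). A biopsy is a mixture of cell types, so more cells of a type and more RNA per cell cannot be told apart. Cows are numbered within each genotype only to name them.

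Class II molecules are pairs of an alpha and a beta chain that hold peptides from ingested proteins on the cell surface and show them to helper T cells. Cattle have DR and DQ pairs on the cell surface, while DM works inside the cell, where it helps peptides to load, and CD74, the invariant chain, guards the empty groove. The DQ genes differ strongly between cattle haplotypes, in sequence and in copy number, and in the mammary gland class II is best known on macrophages, dendritic cells and B cells, with epithelium able to express it too. In the RefSeq annotation of assembly ARS-UCD2.0 the genes measured lie on chromosome 23, with BOLA-DQA2, BOLA-DQB, BOLA-DQA5 and BOLA-DQB1 next to each other. BOLA-DRB3 and BOLA-DRA follow, and BOLA-DMB and BOLA-DMA lie apart from them, on the other side of a stretch of 372 annotated genes. CD74 lies on chromosome 7.

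Each value is a log2 difference from a baseline of that probe set, so a value of 1 is 2-fold above the baseline and only differences between cows can be read, never levels of one probe set against another. The values do not separate the amount of mRNA from how well a cow's allele matches the probes, and that match was not tested. Over the whole genome AA 2 and AA 9 had much wider values than the rest, with an SD over probe sets of 0.86 and 0.78, against 0.21 to 0.35 in the other 26 arrays. AA 9 was also the highest array in 11 of the 15 class II probe sets and the lowest in 2. The genotypes were spread unevenly over the array numbers in the sample titles. Numbers 29 to 42 held 4 KK, 2 KA and 8 AA arrays, and numbers 43 to 56 held 0 KK, 11 KA and 3 AA arrays.

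**Figure D1:**
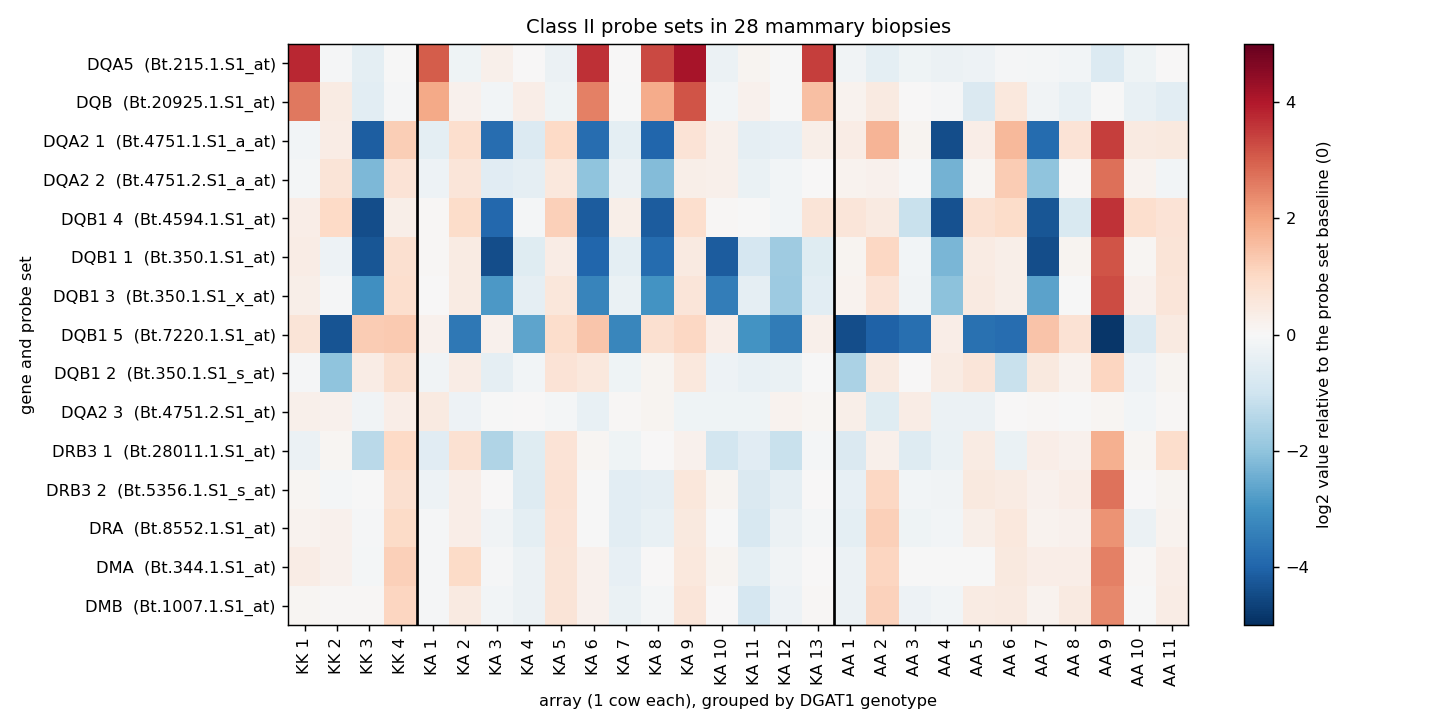
Log2 value of each of the 15 class II probe sets (rows) in each of the 28 cows (columns, grouped as KK, KA and AA between black lines), blue below and red above the baseline of the probe set. The upper rows show the DQ probe sets with whole cows far below or above the rest, and the lower rows show DR and DM with smaller values, highest in AA 9.

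The DQ genes were the ones with low and high cows. A gap of at least 1 log2 between neighbouring arrays, with at least 3 arrays on each side, was found in 7 of the 15 class II probe sets, all of DQ genes, and in 31 of all 24016 probe sets, or 0.129%. The pattern served to choose the genes, so nothing is read from that share. The nearest probe set outside the limit was that of BOLA-DQB, with a gap of 0.96, and the smallest gap inside it was 1.30, in BOLA-DQB1 probe set 3. The gap of 3.11 log2 in BOLA-DQA2 probe set 1 ranked 1 among all probe sets, and those of BOLA-DQB1 probe set 4 and BOLA-DQA5 ranked 3 and 4.

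BOLA-DQA2, a DQ alpha chain, was low in 6 cows. In probe set 1 their values were -4.11 in KK 3, -3.79 in KA 3, -3.80 in KA 6, -3.95 in KA 8, -4.44 in AA 4 and -3.86 in AA 7. The other 22 cows lay between -0.68 and 3.44, so no cow lay between -3.79 and -0.68. The low cows were 1 of 4 KK, 3 of 13 KA and 2 of 11 AA, and each genotype held both low and high cows.

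The same 6 cows were low in BOLA-DQB1, a DQ beta chain, when it was read with probe set 4. There the low values were -4.42 in KK 3, -3.92 in KA 3, -4.16 in KA 6, -4.15 in KA 8, -4.35 in AA 4 and -4.27 in AA 7. The lowest of the other 22 cows was AA 3 at -1.13. All 6 low cows of BOLA-DQA2 probe set 1 were thus the 6 low cows of BOLA-DQB1 probe set 4.

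Other probe sets of these genes drew the line slightly differently. BOLA-DQA2 probe set 2 was low in 5 of the 6 cows, at -2.37 to -2.0, while KA 3 had -0.57 and belonged with the rest. Probe set 3 of this gene was nearly flat, with an SD of 0.25 over the 28 arrays. It ran from -0.61 in AA 2 to 0.46 in KA 1, so the 3 probe sets of BOLA-DQA2 disagree.

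BOLA-DQB1 probe set 1 was low in KK 3, KA 3, KA 6, KA 8, KA 10 and AA 7, at -4.44 to -3.85. AA 4 at -2.29 and KA 12 at -1.79 fell between these and the other 20 cows. The related probe set 3 placed all 8 of these cows on its low side, at -3.45 to -1.81, with the rest at -0.52 or higher. KA 10 was therefore low in these probe sets of BOLA-DQB1 but had 0.24 in BOLA-DQA2 probe set 1 and 0.06 in probe set 4 of BOLA-DQB1.

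BOLA-DQA5, another DQ alpha chain, showed the reverse form, with a few high cows. Its values were 3.75 in KK 1, 3.04 in KA 1, 3.66 in KA 6, 3.29 in KA 8, 4.10 in KA 9 and 3.44 in KA 13. The other 22 cows lay between -0.67 and 0.27. The high cows were 1 of 4 KK, 5 of 13 KA and 0 of 11 AA.

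BOLA-DQB, a DQ beta chain that the annotation places beside BOLA-DQA5, was high in the same 6 cows. It had 2.62 in KK 1, 1.91 in KA 1, 2.50 in KA 6, 1.85 in KA 8, 3.16 in KA 9 and 1.49 in KA 13. The highest of the other 22 cows was AA 6 at 0.53. A high alpha and a high beta chain were found together in these 6 cows, and KA 6 and KA 8 also belonged to the cows low in BOLA-DQA2.

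Another set of cows appeared in BOLA-DQB1 probe set 5, which had the largest spread of the 15, an SD of 2.30 that ranked 2 among all probe sets. It was low, at -4.87 to -2.64, in 12 cows, which were KK 2, KA 2, KA 4, KA 7, KA 11, KA 12, AA 1, AA 2, AA 3, AA 5, AA 6 and AA 9. The other 16 lay between -0.67 and 1.44. By genotype the low cows were 1 of 4 KK, 5 of 13 KA and 6 of 11 AA.

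None of these 12 cows was among the 6 low in BOLA-DQA2 probe set 1, and none was among the 6 high in BOLA-DQA5. KA 12, however, was also on the low side of BOLA-DQB1 probe set 3, at -1.81. After quantile normalization the low cows of BOLA-DQB1 probe set 5 were not the same 12. In 3 of the 12, probe set 2 of BOLA-DQB1 was also lower, at -2.0 in KK 2, -1.59 in AA 1 and -1.13 in AA 6, against -0.44 or higher in the other 25 cows. AA 9 had -4.87 in BOLA-DQB1 probe set 5 but 3.60 in probe set 4, so 2 probe sets of BOLA-DQB1 gave the lowest and the highest value of all cows in the same animal. The cows that were neither low in BOLA-DQA2, nor high in BOLA-DQA5, nor low in BOLA-DQB1 probe set 5 were KK 4, KA 5, KA 10, AA 8, AA 10 and AA 11.

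**Figure D2:**
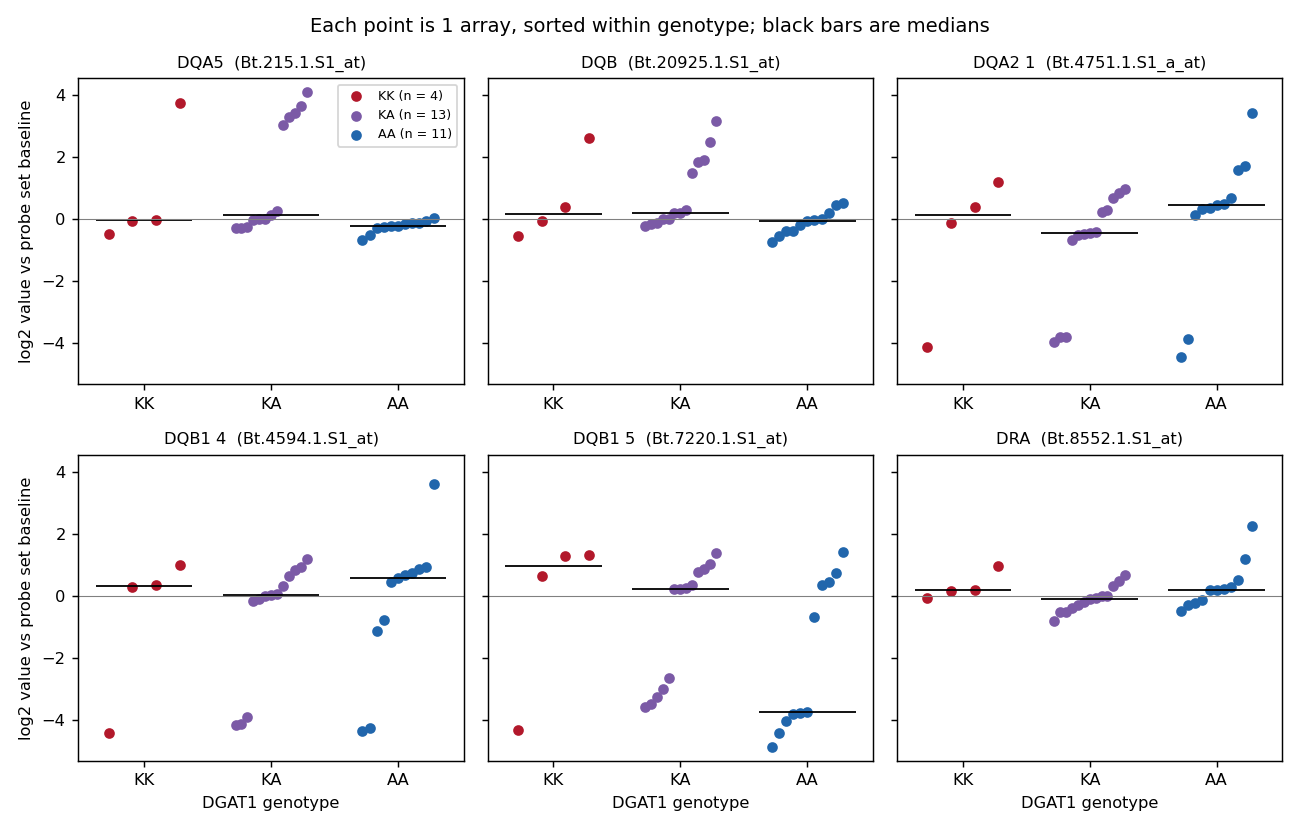
Log2 value against the baseline of the probe set (vertical axis) for each cow, by DGAT1 genotype (KK left, then KA, then AA), in 6 class II probe sets, with black bars at the medians. BOLA-DQA5 and BOLA-DQB have 1 high KK cow, 5 high KA cows and 0 high AA cows, BOLA-DQA2 probe set 1 and BOLA-DQB1 probe set 4 have low cows in all 3 genotypes, and BOLA-DRA shows no such gap.

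Among genes outside the 8 described here, BOLA-DQA1, also a DQ alpha chain, was the most like BOLA-DQA2 probe set 1 and BOLA-DQB1 probe sets 1, 3 and 4 in the order of the cows. Its Spearman rho over the 28 arrays was 0.93 with BOLA-DQA2 probe set 1 (Pearson r 0.84, and rho 0.92 without AA 2 and AA 9). With the BOLA-DQB1 probe sets rho was 0.91 for probe set 1, 0.89 for probe set 3 and 0.75 for probe set 4. Probe set 4 of BOLA-DQB1 was closer to BOLA-DQA2 itself, with a rho of 0.81 for its probe set 1 and 0.85 for its probe set 2. These are descriptions over the same arrays, and whether near-identical DQ genes share probes was not tested, so their separate values are uncertain. For BOLA-DQA5 the closest gene outside the 8 was PLCB4 at a rho of 0.78 (Pearson r 0.56), for BOLA-DQB it was CAV2 at 0.69 (0.56), and for BOLA-DQB1 probe set 5 it was DNAJC3 at 0.69 (0.71). Without AA 2 and AA 9 other genes came first, SULT2A1 for BOLA-DQA5, LOC525599 for BOLA-DQB and PNPT1 for BOLA-DQB1 probe set 5. BOLA-DQA5 and BOLA-DQB, which share their high cows, had a Pearson r of 0.94 with each other (0.95 without AA 2 and AA 9) and a rho of 0.61.

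BOLA-DRA, BOLA-DRB3 probe set 2, BOLA-DMA and BOLA-DMB had graded values in much the same order of cows, while BOLA-DRB3 probe set 1 followed them less closely. BOLA-DRA, the DR alpha chain, ran from -0.06 in KK 3 to 0.96 in KK 4 (median 0.18) in KK cows, from -0.82 in KA 11 to 0.68 in KA 5 (median -0.10) in KA cows and from -0.48 in AA 1 to 2.25 in AA 9 (median 0.18) in AA cows. The 3 genotypes overlapped, and AA 9, AA 2 at 1.20 and KK 4 were the highest cows. Over the 28 arrays the 6 pairs formed by BOLA-DRA, BOLA-DRB3 probe set 2, BOLA-DMA and BOLA-DMB had a rho of 0.877 to 0.968, and of 0.848 to 0.960 without AA 2 and AA 9. BOLA-DRB3 probe set 1 had a rho of 0.68 with BOLA-DRA and 0.67 with BOLA-DRB3 probe set 2 (0.63 and 0.62 without AA 2 and AA 9).

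The order of the cows was nearly shared among these 4 probe sets. AA 9 was the highest in each, with 2.25 in BOLA-DRA, 2.70 in BOLA-DRB3 probe set 2, 2.52 in BOLA-DMA and 2.42 in BOLA-DMB. KK 4 and AA 2 held ranks 2 and 3 in each, and KA 11 was the lowest in each, with -0.82 in BOLA-DRA, -0.72 in BOLA-DRB3 probe set 2, -0.48 in BOLA-DMA and -0.85 in BOLA-DMB. The 12 cows low in BOLA-DQB1 probe set 5 include both AA 9 and KA 11, the top and the bottom of this order.

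BOLA-DMA and BOLA-DMB encode the chains of the peptide-loading helper. BOLA-DMA averaged 0.43 ± 0.55 in KK cows (SD, n = 4), 0.08 ± 0.42 in KA cows (SD, n = 13) and 0.44 ± 0.78 in AA cows (SD, n = 11). BOLA-DMB averaged 0.33 ± 0.50 in KK cows, 0.002 ± 0.42 in KA cows and 0.42 ± 0.78 in AA cows, with the same n. The KA minus AA difference of BOLA-DMB, -0.42, was about the size of the KA SD and smaller than the AA SD.

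The 2 probe sets of BOLA-DRB3, the main DR beta chain of cattle, disagreed in some cows. Probe set 1 was lowest in KA 3 at -1.50, KK 3 at -1.35 and KA 12 at -1.12. In probe set 2 these cows had 0.01, -0.02 and -0.44. KK 3 and KA 3 were also among the cows low in BOLA-DQA2.

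BOLA-DMB was the gene closest to BOLA-DRA in the order of cows, at a rho of 0.968. Outside the 8 genes the closest were CTSS, the protease cathepsin S that degrades CD74, at a rho of 0.95 (0.94 without AA 2 and AA 9), and CD48, a surface protein of leukocytes, at 0.93. PSMB9, a subunit of the immunoproteasome, MPEG1, a pore protein of macrophages, and CD52, a leukocyte surface protein, followed at 0.91 each. Also outside the 8, PSMB9 was the closest gene to BOLA-DMA at 0.89, to BOLA-DMB at 0.94 and to BOLA-DRB3 probe set 1 at 0.76. CD53, a leukocyte tetraspanin, was in that sense the closest to BOLA-DRB3 probe set 2 at 0.95.

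The means of the leukocyte lists moved with BOLA-DRA. The mean of 7 endothelium genes had a rho of 0.03 (-0.01 without AA 2 and AA 9), but it joins genes of opposite direction. Of these genes 4 had a rho above 0 and 3 below 0, from -0.52 to 0.40. The mean of 8 genes found in all leukocytes ranged from -0.29 to 1.27 in KK cows, from -0.60 to 0.90 in KA cows and from -0.996 to 1.69 in AA cows, and was 1.69 in AA 9, 1.14 in AA 2 and 1.27 in KK 4. Its rho with BOLA-DRA was 0.87 over 28 arrays and 0.83 without AA 2 and AA 9. The rho was 0.85 for 11 myeloid genes, 0.80 for 9 B and plasma cell genes and 0.74 for 17 T and natural killer cell genes.

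Single genes had a rho above 0 with BOLA-DRA in 8 of the 8 leukocyte genes, 10 of the 11 myeloid genes, 6 of the 9 B and plasma cell genes and 12 of the 17 T and natural killer cell genes. It was also above 0 in 9 of the 10 fibroblast and matrix genes and 14 of the 14 class I presentation genes. The sign is thus not particular to the leukocyte lists, and the share of all probe sets with a rho above 0 was not counted.

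For the mean of 15 genes of milk-producing epithelium the rho was 0.07 (0.33 without AA 2 and AA 9), but that mean joins genes of opposite direction. The rho was above 0 for 5 of them, such as EPCAM at 0.69, CDH1 at 0.59 and KRT18 at 0.54, which encode adhesion and keratin proteins of epithelium. It was below 0 for 10, such as BTN1A1 at -0.69, CSN1S1 at -0.60 and GLYCAM1 at -0.56, which encode milk proteins, and the transcription factor ELF5 at -0.59. The mean of the list was -0.91 in AA 9 and -0.33 in AA 2. For 10 fibroblast and matrix genes the rho was 0.48 and Pearson r 0.75, with list means of 1.53 in AA 9 and 1.08 in AA 2. Without AA 2 and AA 9 the rho was 0.34 and Pearson r 0.30. These lists share libraries with BOLA-DRA, and levels relative to a baseline do not show whether a marker is absent. The part of leukocyte content in the class II values was not tested.

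**Figure D3:**
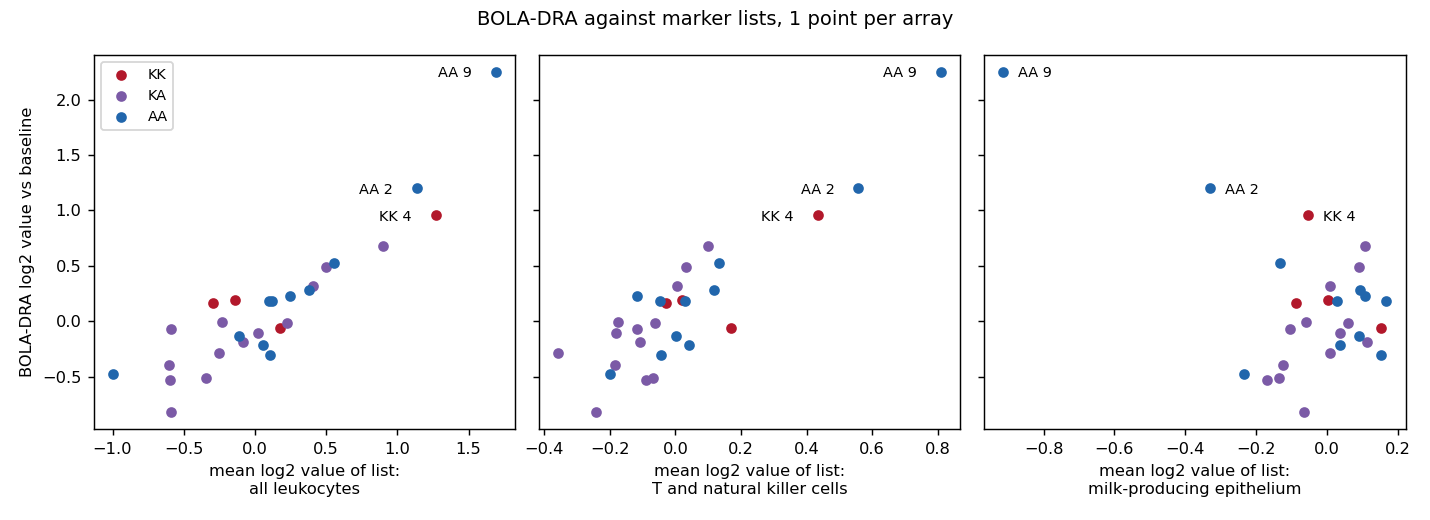
BOLA-DRA log2 value (vertical axis) against the mean log2 value of 3 marker lists (horizontal axes), 1 point per cow, coloured by genotype (KK, KA, AA), with KK 4, AA 2 and AA 9 named. BOLA-DRA follows the leukocyte lists over all cows, and for the list of milk-producing epithelium AA 9 and AA 2 lie to the left of the other cows.

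The pathway genes around the class II molecules were split in direction. Of 23 listed genes for its regulators, proteases and partners 19 were measured, with CIITA, the master regulator, among those without a probe set of 1 symbol. Between KK and AA cows 10 were higher and 9 lower, and 0 had an unadjusted limma p under 0.05. Between KA and AA cows 9 were higher and 10 lower, 0 passed the adjustment, and 1 higher and 3 lower had an unadjusted p under 0.05. That share is no more than the 21.8% of all probe sets with such a p between KA and AA cows, against 3.51% between KK and AA cows.

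The 3 pathway genes with the smallest p were RFXANK, a subunit of the factor that binds class II promoters, at -0.27 for KA minus AA (SE 0.08, limma adjusted p = 0.139), IFI30, a lysosomal thiol reductase, at -0.50 (SE 0.23, adjusted p = 0.214), and the protease CTSH at -0.48 (SE 0.22, adjusted p = 0.217). Of the 19 measured genes, 11 had a rho above 0 with BOLA-DRA and 8 below 0, the lowest being CD4 at -0.64. BOLA-DOA, an inhibitor of DM picked after its values were seen, had its highest value in AA 9 at 1.81 and a rho of 0.76 with BOLA-DRA. BOLA-DYA and BOLA-DYB, class II genes of ruminants also picked in that way, stayed between -0.52 and 0.28 in all cows.

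Of 14 class I presentation genes, 3 were higher and 11 lower in KA than in AA cows, with 0 called. Of all probe sets 54.5% were higher in KA cows, and 0 were called. An unadjusted limma p under 0.05 was found in 4 of the 14, all lower, against 21.8% of all probe sets. TAP2, a peptide transporter, had -0.51 for KA minus AA (SE 0.19, limma adjusted p = 0.156). ERAP2 had the smallest p of this list, at 0.95 for KK minus AA (SE 0.23, limma adjusted p = 0.909), and had 0.21 for KA minus AA (SE 0.16). Between KK and AA cows 6 of the 14 were higher and 8 lower, with 0 called. Only ERAP2 had an unadjusted p under 0.05 there, against 3.51% of all probe sets. Of the 8 leukocyte genes, 0 were higher and 8 lower in KA than in AA cows, with 0 called. Only 1 of the 8 had an unadjusted limma p under 0.05, against the same 21.8% of all probe sets. For PTPRC, the leukocyte common antigen, the KA minus AA difference was -0.65 (SE 0.27, limma adjusted p = 0.188). The mean of the leukocyte list differed by -0.39 between KA and AA cows and by -0.15 without AA 2 and AA 9, still with 8 of 8 lower. For class I it differed by -0.20 and by -0.13 without these arrays, then with 2 higher and 12 lower. Leaving out arrays for these lists was chosen after seeing the data.

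The comparison of genotypes asks whether class II transcripts differed with the DGAT1 alleles, and limma was fitted on all 24016 probe sets with adjustment over all of them. Between KK and AA cows no class II probe set passed an adjusted p of 0.05, among 0 of all probe sets, or 0%. At an unadjusted p under 0.05 the 15 gave 0, against 842 of all probe sets, or 3.51%. The class II differences had a median of -0.22, with 4 of 15 above 0, against a median of 0.009 and 52.2% above 0 over all probe sets. The 15 probe sets are not independent of each other. Their differences ran from -0.75 (SE 1.08) in BOLA-DQB1 probe set 1 to 1.76 (SE 1.24) in BOLA-DQB1 probe set 5. The sign of the median did not hold, as it was 0.05 after quantile normalization, 0.10 without AA 2 and AA 9, 0.28 with array weights and 0.30 without KK 3. The value of BOLA-DQB1 probe set 5 was 3.11 without KK 2 and 0.48 with array weights.

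BOLA-DQA5 averaged 0.80 ± 1.98 in KK cows (SD, n = 4) and -0.23 ± 0.20 in AA cows (SD, n = 11), a difference of 1.03 (SE 0.79, limma adjusted p = 0.909). The KK mean rests on KK 1, since the other 3 KK cows lay within the range of AA, and without KK 1 the difference was 0.05. BOLA-DRA averaged 0.32 ± 0.44 in KK cows and 0.34 ± 0.78 in AA cows, a difference of -0.03 (SE 0.33, limma adjusted p = 0.991), which became 0.28 without AA 2 and AA 9.

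Between KA and AA cows 0 class II probe sets passed the adjusted p, among 0 of all probe sets, or 0%. At an unadjusted p under 0.05 the 15 gave 3, against 5247 of all probe sets, or 21.8%, and read against that background 3 of 15 is not a result about class II. The class II differences had a median of -0.41, with 4 of 15 above 0, against a median of 0.02 and 54.5% above 0 over all probe sets. The class II median was -0.05 without AA 2 and AA 9, -0.15 without AA 9 alone, -0.24 after quantile normalization and -0.17 with array weights.

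BOLA-DQA5 had the smallest p of the 15 here. It averaged 1.32 ± 1.82 in KA cows (SD, n = 13) and -0.23 ± 0.20 in AA cows (SD, n = 11), a difference of 1.55, or 2.93-fold (SE 0.55, limma adjusted p = 0.154). BOLA-DQB averaged 0.86 ± 1.16 in KA cows and -0.10 ± 0.40 in AA cows, a difference of 0.95 (SE 0.37, limma adjusted p = 0.174). The medians, which the 5 high KA cows move less, were closer. The KA medians were 0.13 for BOLA-DQA5 and 0.22 for BOLA-DQB, against AA medians of -0.21 and -0.05.

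Within array numbers 29 to 42 the KA minus AA difference of BOLA-DQA5 was 1.61 (n = 2 and 8) and within 43 to 56 it was 1.59 (n = 11 and 3). For BOLA-DQB these were 1.07 and 1.13. High KA cows were thus found in both ranges, 1 of 2 and 4 of 11, and high AA cows in neither, 0 of 8 and 0 of 3.

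BOLA-DRB3 probe set 2 averaged -0.10 ± 0.46 in KA cows and 0.42 ± 0.85 in AA cows, a difference of -0.52 (SE 0.25, limma adjusted p = 0.222). BOLA-DRA differed by -0.45 (SE 0.23, adjusted p = 0.245), BOLA-DMB by -0.42 (SE 0.23, adjusted p = 0.268) and BOLA-DMA by -0.35 (SE 0.23, adjusted p = 0.348), all in limma. Without AA 2 and AA 9 the difference was -0.20 in BOLA-DRB3 probe set 2, -0.14 in BOLA-DRA, -0.12 in BOLA-DMB and -0.05 in BOLA-DMA.

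Within array numbers 29 to 42 the KA minus AA difference was -0.19 in BOLA-DRB3 probe set 2, -0.07 in BOLA-DRA, -0.05 in BOLA-DMB and 0.22 in BOLA-DMA. Within 43 to 56, where AA 9 is 1 of the 3 AA cows, the differences were -1.08, -0.86, -0.95 and -0.96 in the same order, and without AA 9, a choice made after seeing the data, they were -0.20, -0.09, -0.20 and -0.19. BOLA-DRB3 probe set 1 differed by -0.47 (SE 0.28, limma adjusted p = 0.304) over all arrays and by -0.29 without AA 2 and AA 9. Within 29 to 42 it gave 0.19, and within 43 to 56 it gave -1.28, or -0.85 without AA 9.

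The DQ probe sets with low cows had wide errors for KA minus AA. The difference was -1.40 (SE 0.76, limma adjusted p = 0.263) in BOLA-DQB1 probe set 1, -1.18 (SE 0.60, adjusted p = 0.241) in probe set 3 and 1.20 (SE 0.87, adjusted p = 0.392) in probe set 5. In BOLA-DQA2 probe set 1 it was -0.93 (SE 0.80, adjusted p = 0.465). Within array numbers 29 to 42 and 43 to 56, BOLA-DQB1 probe set 1 gave 0.85 and -3.10, and BOLA-DQA2 probe set 1 gave 0.61 and -2.50, so neither kept its sign within both ranges.

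**Figure D4:**
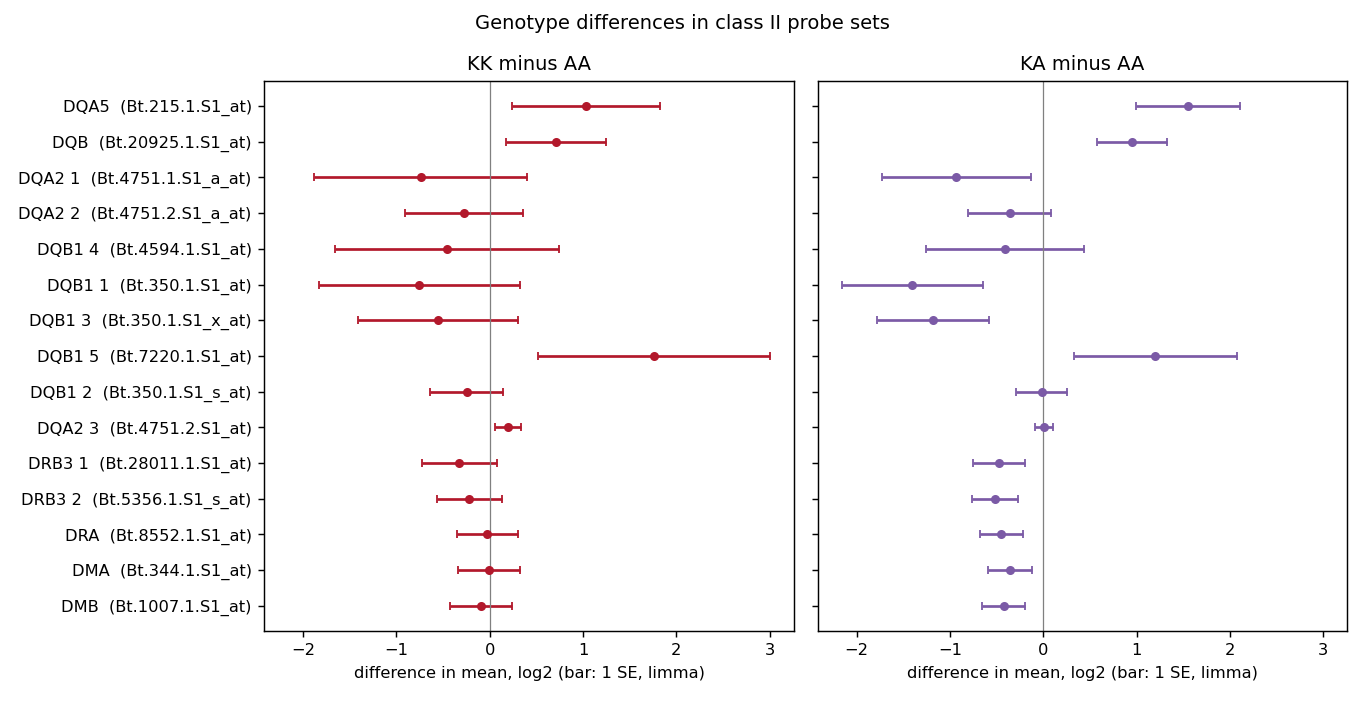
Difference in mean log2 value (horizontal axis, with bars of 1 SE from limma) for KK minus AA (left) and KA minus AA (right) in the 15 class II probe sets (vertical axis). The bars are longest for the DQ probe sets with low and high cows, and BOLA-DQA5 and BOLA-DQB lie above 0 in both panels.

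Between KK and KA cows 0 of the 15 passed the adjusted p, among 0 of all probe sets, or 0%, and 0 had an unadjusted p under 0.05, against 681 of all, or 2.84%. The median class II difference was 0.19, with 11 of 15 above 0, against a median of -0.001 and 49.5% above 0 over all probe sets. The class II median ran from 0.03 without KK 4 to 0.56 with the array number range as a block. The slope per K allele, which orders the genotypes by 0, 1 and 2 copies, likewise called 0 of the 15, among 0 of all probe sets, or 0%, and 0 had an unadjusted p under 0.05, against 2199 of all, or 9.16%. Its median over the 15 was -0.14 log2 per allele, against 0.009 over all probe sets, and turned to 0.04 without AA 2 and AA 9 and 0.06 with array weights. With 4 KK cows, and DQ values that split the cows of one genotype by several log2 units, these fits leave wide intervals, and a difference that did not pass is not shown to be absent.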

How the data were processed

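Mammary RNA of 28 cows was measured on 1 array each. Deposited was 1 log2 value per probe set and array, which the authors made with Bioconductor 2.7 in R 2.13, per the labels' protocols. The submitters' processing notes name RMA and GCRMA without saying which was used for this table. A baseline per probe set had been subtracted, so levels and signal over background are unknown. Precision is limited by how many arrays each genotype has.

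The 112 control probe sets were left out and 24016 were tested. The platform annotation gave 1 symbol for 13292, several for 86 and none for 10638, and 13263 of the symbols were found in the RefSeq table. Limma 3.58.1 in R 4.3.3 fitted 1 mean per genotype, and a slope per K allele in a second model, with Benjamini-Hochberg adjustment over all probe sets and a threshold of 0.05. Its script was tested on simulated data. Genes of other lists were represented by 1 probe set each. Named genes were all class II probe sets, at most 3 genes with the smallest p of each other list described, and for each class II probe set up to 5 genes with the highest Spearman rho. Genes of milk-producing epithelium, and CD4, were instead named by their rho with BOLA-DRA.

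The class II genes and the lists were chosen with earlier results of these data known. Replicate numbers follow the order of the samples and pair nothing. Alternatives were quantile normalization, centring, leaving out AA 2 and AA 9 or each array in turn, array numbers as a block or covariate, array weights, robust variances, only the groups compared and a threshold of 0.10. Differences within array numbers and list means without AA 2 and AA 9 were added after seeing the data.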

Additional observations from a re-analysis of the deposited data

Results flagged for a closer look

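In 4 of the 15 class II probe sets 1 of the 4 KK cows lay far from the other 3, with a gap to its nearest neighbour that exceeded Dixon's 95% critical share of the range. KK 4 had 1.08 in BOLA-DMB, KK 1 had 3.75 in BOLA-DQA5, KK 3 had -4.42 in BOLA-DQB1 probe set 4 and KK 2 had -4.33 in BOLA-DQB1 probe set 5. Chance puts a cow so far out in about 1 in 20 groups of independent values, 15 groups of KK cows were examined, and the probe sets are not independent of each other. KA and AA have more than 10 cows and were not examined in this way. The 3 DQ values are the low and high values that served to choose the genes, so for them this restates the choice and tests nothing, and KK 4 was also high in the leukocyte markers.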

How the results depend on the processing

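No class II probe set passed under any of the 37 alternatives for KK minus AA, KA minus AA and KK minus KA or the 36 for the slope per K allele. For KA minus AA the number of all probe sets called, 0 in the fit reported, was 12 at a threshold of 0.10, 47 after quantile normalization, 5 with array number as a covariate, 104 with array weights and 0 to 525 when each array was left out in turn (525 without AA 1, 5 without KK 3, 5 without KA 5, 1 without KA 9 and 1 without AA 7). For KK minus KA it was 3 with array weights. The KK minus AA difference of BOLA-DRA, -0.03, turned to 0.16 after quantile normalization, 0.28 without AA 2 and AA 9, 0.020 with the array number range as a block and 0.28 with array weights, and ran from -0.24 to 0.17 when each array was left out. That of BOLA-DQB1 probe set 1, -0.75, turned to 0.18 with array weights and ran from -1.30 to 0.39 when each array was left out, 0.39 being without KK 3. With array weights 10 of the 15 KK minus AA differences changed sign. The causes were not tested. For KA minus AA, BOLA-DQA5 kept its sign in all alternatives, at 1.32 to 1.68 (adjusted p 0.0925 to 0.425), as did BOLA-DQB at 0.76 to 1.17 and BOLA-DRA at -0.54 to -0.14. After quantile normalization the low and high cows were the same for BOLA-DQA2 probe sets 1 and 2, BOLA-DQA5, BOLA-DQB and BOLA-DQB1 probe sets 2, 3 and 4, but not for BOLA-DQB1 probe sets 1 and 5. No paired analysis was possible because the replicate numbers only name the cows in sample order.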
